A study of Homo sapiens with 12 samples.

Results

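The 10 elastic fibre genes described here were followed through 3 human hepatocellular carcinoma lines grown with and without lactate: EFEMP1, EFEMP2, FBLN1, FBLN2 and FBLN5 (fibulins), FBN1 and FBN2 (fibrillins), LTBP1 and LTBP3 (latent TGF-beta binding proteins) and ELN (elastin). They are 10 of the 62710 genes in the tables and were taken by symbol. The set was chosen by the measured EFEMP2 values, which were already known to differ with lactate between these lines, so the lactate values of EFEMP2 are given as a description with no test. Its differences between untreated lines use the same control libraries and are also given with no p-value. The other 9 genes were tested for lactate and between the untreated lines.

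The established liver cancer lines were HLF, SNU475 and PLC/PRF/5, and total RNA was sequenced from untreated control cells of each line and from cells kept for 24 h in 20 mM lactate, supplied as lactic acid. Each of the 6 groups had 2 libraries, numbered 1 and 2, which gives 12 libraries. Whether a group's 2 libraries stem from different cultures is not in the labels, and the p-values below therefore reflect only how far these libraries vary, possibly for technical reasons. The study concerns glycolysis and lactylation of histone H4 in liver cancer.

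Elastic fibres are built from a scaffold of fibrillin microfibrils onto which elastin is laid and then crosslinked by lysyl oxidases. Fibulins are secreted glycoproteins that bind elastin, fibrillin and the crosslinking enzymes, and the latent TGF-beta binding proteins anchor inactive TGF-beta to fibrillin. In liver these genes are best known from stellate cells, portal fibroblasts and vessel walls, where they belong to the scar matrix.

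Depth ranged from 16530000 to 22190000 estimated counts per library, and mitochondrial transcripts took from 3.39% to 15.1% of them. The share was highest in the SNU475 libraries numbered 2, at 15.1% in the control and 13.9% in the lactate library, against 8.0% and 8.5% in those numbered 1. All 8 listed hepatocyte markers were at 1 TPM (share of transcripts, scaled for gene length) or more on average in PLC/PRF/5, but 2 of 8 in HLF and 1 of 8 in SNU475. APOA1, APOB and TTR had no count in any HLF or SNU475 library, and HNF4A had none in HLF. The summed level of 9 fibroblast and stellate markers was 953 to 1848 TPM in SNU475, 24.4 to 62.0 TPM in HLF and 2.65 to 5.60 TPM in PLC/PRF/5. Of these 9 markers, 8 reached 1 TPM in SNU475, 5 in HLF and 1 in PLC/PRF/5, where DCN was at 0 counts. The endothelial list summed to at most 4.79 TPM, and its members VWF and STAB2 were at 0 counts in PLC/PRF/5. PECAM1 of that list had 64 counts in PLC/PRF/5 controls (mean 0.87 TPM) and 227 with lactate (3.5 TPM). The immune list summed to 141 to 162 TPM in HLF, 40.4 to 159 TPM in SNU475 and 116 to 250 TPM in PLC/PRF/5. Its member CD68 was at 151 TPM on average in HLF controls and LYZ at 128 TPM in PLC/PRF/5 controls, while PTPRC was at 0 counts in both lines. In SNU475, PTPRC had 32 counts in controls (mean 0.345 TPM) and 35 with lactate (0.51 TPM). CD14 was at 16.7 ± 17.3 TPM (SD, n = 2) in SNU475 controls. The part of these differences in the results below was not tested.

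Stretches before 3 start sites are shown, that of EFEMP2 because it chose the set, and those of FBLN2 and FBN1 because they had the widest fitted differences between untreated lines among the genes with counts in every line. Each is the 250 bases before the RefSeq start in GRCh38.p14, read 5′ to 3′ on the gene's own strand, and capitals mark GGGCGG on either strand, the GC box.
EFEMP2, chr11:65872801-65873050, minus strand: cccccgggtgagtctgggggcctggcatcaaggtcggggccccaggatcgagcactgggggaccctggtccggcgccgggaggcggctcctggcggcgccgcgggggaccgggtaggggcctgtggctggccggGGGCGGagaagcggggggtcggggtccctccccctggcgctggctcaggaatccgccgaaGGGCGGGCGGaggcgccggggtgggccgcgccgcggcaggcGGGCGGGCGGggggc
FBLN2, first of its RefSeq starts, chr3:13548875-13549124, plus strand: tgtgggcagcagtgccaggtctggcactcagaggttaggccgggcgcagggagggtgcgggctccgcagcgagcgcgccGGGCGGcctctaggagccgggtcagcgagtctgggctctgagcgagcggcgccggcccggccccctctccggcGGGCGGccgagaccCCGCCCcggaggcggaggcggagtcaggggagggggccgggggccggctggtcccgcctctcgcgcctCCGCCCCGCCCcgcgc
FBN1, chr15:48644971-48645220, minus strand: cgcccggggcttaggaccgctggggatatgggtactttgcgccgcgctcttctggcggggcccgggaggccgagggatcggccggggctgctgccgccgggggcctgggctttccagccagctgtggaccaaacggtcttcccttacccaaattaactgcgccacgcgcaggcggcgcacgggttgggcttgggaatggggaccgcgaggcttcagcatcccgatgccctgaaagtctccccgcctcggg

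RefSeq's promoter table held 8 of the 10 genes with 13 start sites in all, and EFEMP1 and ELN were without an entry. GGGCGG, searched on both strands with overlapping matches counted, occurred 5 times before the EFEMP2 start, 5 times before this FBLN2 start and 0 times before the FBN1 start. It was found before 8 of the 13 starts, against 42.6% of all 35116 windows of the same length in the table. The 13 windows are not all separate stretches. Those of LTBP3, counted among the 8, overlap each other, and LTBP1 also has overlapping windows. The other FBLN2 start had 0 matches and 66.0% G and C. The E box CACGTG was found before the FBN2 start and no other of these 13, against 6.34% of all windows, and TATAAA before 1 start of FBLN5, against 10.7%. The EFEMP2 window held 81.6% G and C, the FBLN2 window 80.4% and the FBN1 window 69.6%, against a median of 58.0% over all windows. These are descriptions of letters in a window and say nothing of binding.

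EFEMP2, or fibulin-4, binds lysyl oxidase and tropoelastin and is needed for elastic fibre assembly. Its transcript was abundant in HLF and scarce in the other lines. In HLF the controls held 239 and 227 counts and the lactate libraries 238 and 258. In SNU475 the controls held 14 and 12 counts and the lactate libraries 30 and 21. In PLC/PRF/5 the controls held 2 counts each and the lactate libraries 29 and 32. In counts, the lactate and control libraries thus overlapped in HLF and were apart in SNU475 and PLC/PRF/5. In TPM, given below, they were apart in HLF too, with both lactate libraries above both controls. In RNA of a whole culture, a change in the number of cells with the transcript and a change in the amount per cell cannot be told apart.

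In CPM (counts scaled to TMM-adjusted library size), EFEMP2 was 11.9 ± 0.0566 (SD, n = 2) in HLF controls and 11.4 ± 0.834 with lactate. It was 0.739 ± 0.0686 in SNU475 controls and 1.65 ± 0.313 with lactate, and 0.106 ± 0.00938 in PLC/PRF/5 controls and 1.37 ± 0.351 with lactate. The ratio of summed counts, lactate over control and scaled for library size, was 0.955 in HLF with a 95% exact counting interval of 0.840 to 1.09. The same ratio was 2.24 in SNU475, interval 1.37 to 3.74, and 12.7 in PLC/PRF/5, interval 4.70 to 47.9. These intervals cover counting error only and leave out the spread between libraries. They are no test of a lactate effect, since they rest on the values that chose the set. The fitted log2 fold changes were −0.07 ± 0.33 (SE) for HLF, 1.15 ± 0.39 for SNU475 and 3.61 ± 0.51 for PLC/PRF/5, with no test since these values chose the set.

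With lactate, the level in SNU475 and PLC/PRF/5 stayed far under that in HLF. Per length, EFEMP2 was at 11.9 and 13.4 TPM in HLF controls and at 14.2 and 15.0 TPM with lactate. It was at 1.56 and 0.91 TPM in SNU475 controls and at 2.58 and 3.80 TPM with lactate, and at 0.21 and 0.42 TPM in PLC/PRF/5 controls and at 2.24 and 2.98 TPM with lactate. TPM of a gene with few counts also moves with the effective length assigned to it, which for EFEMP2 ran from 326 to 1226 bases over the 12 libraries. With effective-length offsets in the fit, the log2 fold change was 1.37 in SNU475 and 3.08 in PLC/PRF/5.

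**Figure D1:**
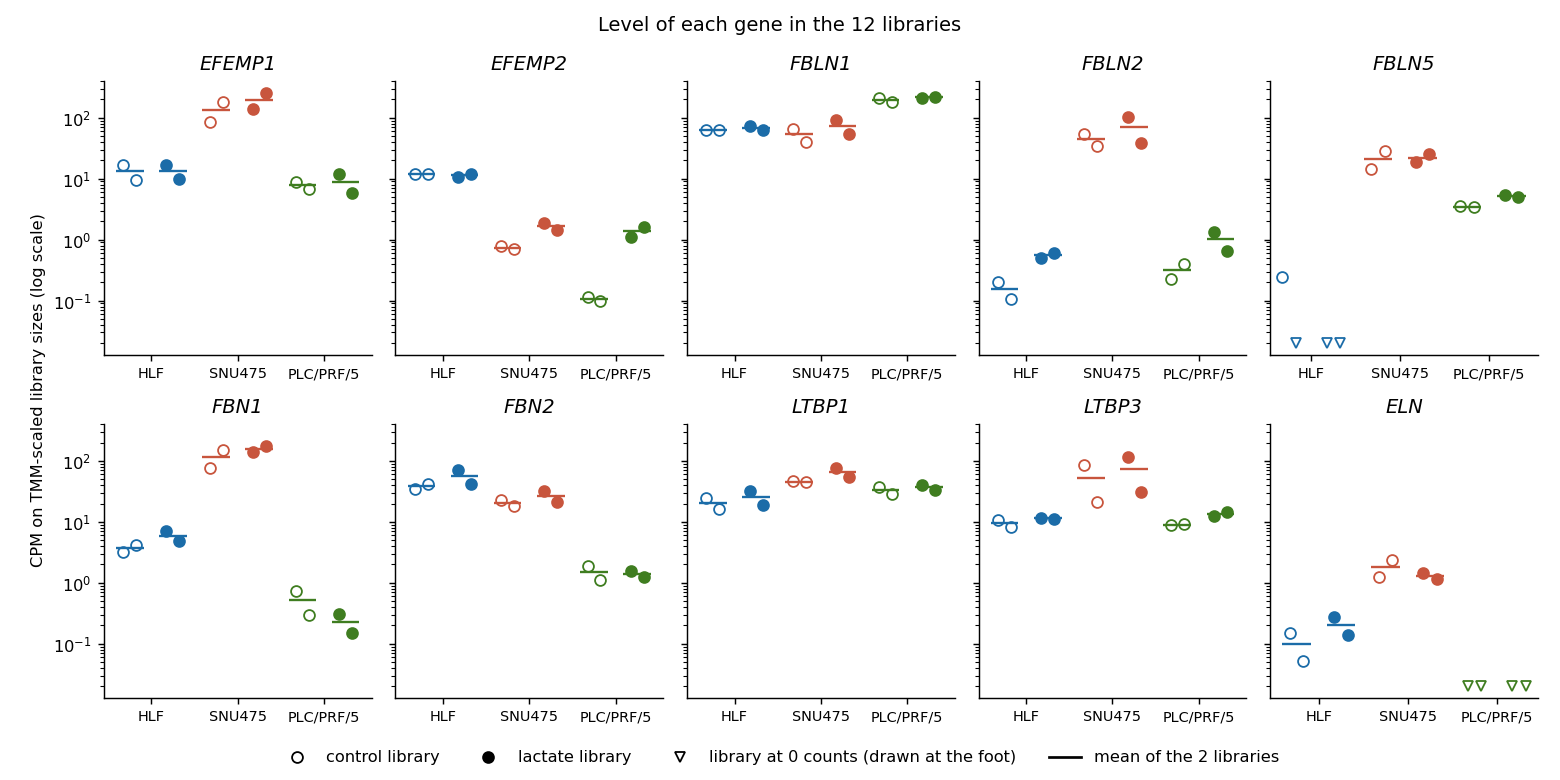
Level of each of the 10 genes in every library, as CPM on TMM-scaled library sizes on a log axis, with control libraries as open and lactate libraries as filled circles, the mean of 2 libraries as a line and libraries at 0 counts as triangles at the foot. EFEMP2 sits near 12 CPM in all HLF libraries and between 0.0995 and 1.87 CPM in the others, and ELN is at 0 counts in all 4 PLC/PRF/5 libraries.

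The untreated lines differed widely in this gene set, and the direction was not shared by all members. The 9 genes other than EFEMP2 were counted by edgeR's quasi-likelihood test at an adjusted p under 0.05. Untreated SNU475 was above HLF in 7 of 9 genes and below it in 1, where 39% of all 18355 tested genes passed. PLC/PRF/5 was above HLF in 2 of 9 and below it in 2, where 43% of all genes passed. PLC/PRF/5 was above SNU475 in 1 of 9 and below it in 7, where 48.7% of all genes passed. EFEMP2 was lower in each comparison and is a description. With it included, the fits called 9, 5 and 9 of 10 genes. Without HLF control 2, the calls between SNU475 and HLF fell from 9 to 5 of 10, and those over all genes to 26.3%. The medians that follow are over all 10 genes, EFEMP2 included. The median size of the log2 difference, whatever its sign, was 3.67, 2.25 and 3.25 in these 3 comparisons, against 0.79, 0.86 and 0.98 for all genes. With sign, the median was 2.91 for SNU475 minus HLF, against 0.00 for all genes. It was −0.42 for PLC/PRF/5 minus HLF, or −0.22 with ELN set to its bound, against 0.00, and −3.25 for PLC/PRF/5 minus SNU475, against −0.03. Each pair of these comparisons shares 1 line's control libraries.

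The log2 fold change of EFEMP2 in untreated SNU475 against HLF was −4.0 ± 0.39. In untreated PLC/PRF/5 it was −6.73 ± 0.49 against HLF and −2.73 ± 0.54 against SNU475. These are the control libraries that enter its lactate values, so the differences are a description. With 4 counts in all, the PLC/PRF/5 controls give a ratio to HLF with a wide counting interval: HLF was 113-fold higher, interval 43.7 to 415.

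EFEMP1, or fibulin-3, is a close relative of EFEMP2. It stood highest in SNU475, at 48.5 and 98.6 TPM in controls and 86.3 and 122 TPM with lactate. HLF had 10.2 and 6.16 TPM in controls and 11.7 and 7.24 TPM with lactate, and PLC/PRF/5 had 7.12 and 5.51 TPM in controls and 8.96 and 4.06 TPM with lactate. The SNU475 libraries did not overlap those of the other lines, while HLF and PLC/PRF/5 libraries overlapped over both conditions. The log2 fold change of untreated SNU475 against HLF was 3.35 ± 0.49 (edgeR adjusted p = 0.00031) and that of PLC/PRF/5 against SNU475 was −4.11 ± 0.52 (adjusted p = 6.71e-05). PLC/PRF/5 against HLF gave −0.77 ± 0.48 (edgeR adjusted p = 0.221). With the replicate number as a block it was −0.72 ± 0.20 (edgeR adjusted p = 0.00934), where 51.4% of all genes passed. Between lines, the SE of the block fit leaves out the spread between a line's library numbers, so its p-value does not measure that spread. EFEMP1 in PLC/PRF/5 against HLF was also called with no filter on low counts (−0.70 ± 0.27, edgeR adjusted p = 0.0396).

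FBLN1 encodes fibulin-1, found in elastic fibres and basement membranes. It was the most abundant of the 10 per length in HLF and PLC/PRF/5. PLC/PRF/5 held 150 and 138 TPM in controls and 169 and 158 TPM with lactate. HLF held 32.1 and 50.7 TPM in controls and 52.7 and 43.8 TPM with lactate, and SNU475 37.0 and 20.3 TPM in controls and 56.5 and 23.8 TPM with lactate. All 4 PLC/PRF/5 libraries lay above all others, and HLF and SNU475 overlapped. FBLN1 was higher in untreated PLC/PRF/5 than in HLF, by 1.65 ± 0.28 on the log2 scale (edgeR adjusted p = 0.000571), and than in SNU475, by 1.88 ± 0.28 (adjusted p = 0.000218). SNU475 against HLF gave −0.24 ± 0.27 (adjusted p = 0.521).

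FBLN2, fibulin-2, binds fibrillin and elastin and has been used as a marker of portal fibroblasts in liver. It had 958 and 600 counts in SNU475 controls, 4 and 2 in HLF controls and 4 and 8 in PLC/PRF/5 controls. The log2 fold change of untreated SNU475 against HLF was 8.11 ± 0.67 (edgeR adjusted p = 4.66e-06), the widest in that comparison among the 10 genes. That of PLC/PRF/5 against SNU475 was −7.10 ± 0.62 (adjusted p = 4.42e-06), while PLC/PRF/5 against HLF gave 1.01 ± 0.93 (adjusted p = 0.410) on 12 and 6 counts in all.

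FBLN5, fibulin-5, tethers elastin to cells through integrins. It had 254 and 486 counts in SNU475 controls and 63 and 69 in PLC/PRF/5 controls. In HLF only 1 library held any count, with 5 in control 1 and 0 in the other 3. Untreated SNU475 exceeded HLF by 7.30 ± 0.72 on the log2 scale (edgeR adjusted p = 2.82e-05), and PLC/PRF/5 exceeded HLF by 4.71 ± 0.72 (adjusted p = 0.000427). With 1 library left out these values ran from 6.37 to 11.67 and from 3.78 to 9.09, and each stayed past the threshold. The highest of each came without HLF control 1, which leaves no count in the HLF controls, so they depend on the prior count. In summed counts the ratio to HLF was 165 for SNU475, with a counting interval of 70.2 to 508, and 27.3 for PLC/PRF/5, interval 11.4 to 85.4. PLC/PRF/5 against SNU475 gave −2.59 ± 0.51 (adjusted p = 0.0018).

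FBN1, the main fibrillin of adult microfibrils, separated all 3 lines. It stood at 18.0 and 28.4 TPM in SNU475 controls, at 1.01 and 1.16 TPM in HLF controls and at 0.17 and 0.07 TPM in PLC/PRF/5 controls. In counts the PLC/PRF/5 controls held 13 and 6 reads, against 1364 and 2666 in SNU475. The log2 fold change was 4.95 ± 0.41 for SNU475 against HLF (edgeR adjusted p = 4.98e-06), −2.86 ± 0.50 for PLC/PRF/5 against HLF (adjusted p = 0.000784) and −7.81 ± 0.50 for PLC/PRF/5 against SNU475 (adjusted p = 4.96e-07).

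FBN2, the fibrillin most used during development, had another order, with HLF highest. Its controls were at 3.67 and 5.70 TPM for HLF, 2.82 and 1.95 TPM for SNU475 and 0.28 and 0.30 TPM for PLC/PRF/5. PLC/PRF/5 was below HLF, with a log2 fold change of −4.67 ± 0.38 (edgeR adjusted p = 2.63e-06), and below SNU475, with −3.76 ± 0.38 (adjusted p = 1.22e-05). SNU475 against HLF gave −0.91 ± 0.32 (adjusted p = 0.0387), a call that was lost with DESeq2 (adjusted p = 0.0552), with effective-length offsets (0.0901) and without any 1 of the 4 controls compared (0.0646 to 0.182). It was also lost without lactate library 1 or 2 of PLC/PRF/5 (adjusted p = 0.0542 and 0.0537) and without both SNU475 libraries numbered 2 (0.0783).

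In TPM of the controls, FBN1 was thus above FBN2 in SNU475, and FBN2 above FBN1 in HLF and in PLC/PRF/5, in each library of each line. The lactate libraries kept that order in every line.

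LTBP1, which carries latent TGF-beta to fibrillin, varied least between the lines among the 10. Its controls were at 5.22 and 4.53 TPM for HLF, 11.6 and 8.21 TPM for SNU475 and 11.6 and 8.77 TPM for PLC/PRF/5. SNU475 exceeded HLF by 1.16 ± 0.30 on the log2 scale (edgeR adjusted p = 0.00988), a call lost without HLF control 2 (0.89 ± 0.35, adjusted p = 0.0905). PLC/PRF/5 against HLF gave 0.70 ± 0.30 (adjusted p = 0.0795) and against SNU475 −0.46 ± 0.30 (adjusted p = 0.218). With the replicate block both were called, at edgeR adjusted p = 0.00616 and 0.0388, where 51.4% and 57.7% of all genes passed. As for EFEMP1, these block p-values leave out the spread between a line's library numbers. PLC/PRF/5 against HLF was also called with no filter on low counts (edgeR adjusted p = 0.0279), with only the 4 libraries compared (0.0311), without both SNU475 libraries numbered 2 (0.0316) and without SNU475 lactate library 2 (0.0477).

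LTBP3, another carrier of latent TGF-beta, was set apart by the spread between its SNU475 libraries. The SNU475 controls were at 39.9 and 9.96 TPM and the lactate libraries at 49.3 and 16.3 TPM, the library numbered 1 being the higher in both. HLF controls were at 4.45 and 5.71 TPM and PLC/PRF/5 controls at 5.12 and 6.85 TPM, so both SNU475 controls lay above them. The log2 fold change of SNU475 against HLF was 2.47 ± 0.63 (edgeR adjusted p = 0.00929). Without SNU475 control 1 it was 1.17 ± 0.55 (adjusted p = 0.129) and without HLF control 2 it was 2.29 ± 0.87 (adjusted p = 0.0793). PLC/PRF/5 against SNU475 gave −2.55 ± 0.63 (adjusted p = 0.00627), and −1.24 ± 0.55 (adjusted p = 0.0919) without SNU475 control 1. PLC/PRF/5 against HLF gave −0.08 ± 0.62 (adjusted p = 0.948).

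ELN, which encodes tropoelastin itself, was scarce in every line. It had 22 and 41 counts in SNU475 controls, 3 and 1 in HLF controls and 0 in all 4 PLC/PRF/5 libraries. A count of 0 allows up to 3 counts, or 0.116 to 0.169 CPM in these 4 libraries. The ratio of SNU475 to HLF controls was 17.5, with a counting interval of 6.51 to 66.3, and the edgeR adjusted p was 0.00596, or 0.0534 without HLF control 2. PLC/PRF/5 controls were at least 22.6-fold lower than SNU475 controls, against a floor of 3 counts over the group (edgeR adjusted p = 0.000908). ELN-AS1, an antisense RNA of the ELN locus with its own row, had 10 and 14 counts in SNU475 controls and 15 and 8 in HLF controls. The libraries were made with a strand-marking kit, but whether the counting used the strand is not given in the sources used here, so reads of ELN and ELN-AS1 may not have been told apart.

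**Figure D2:**
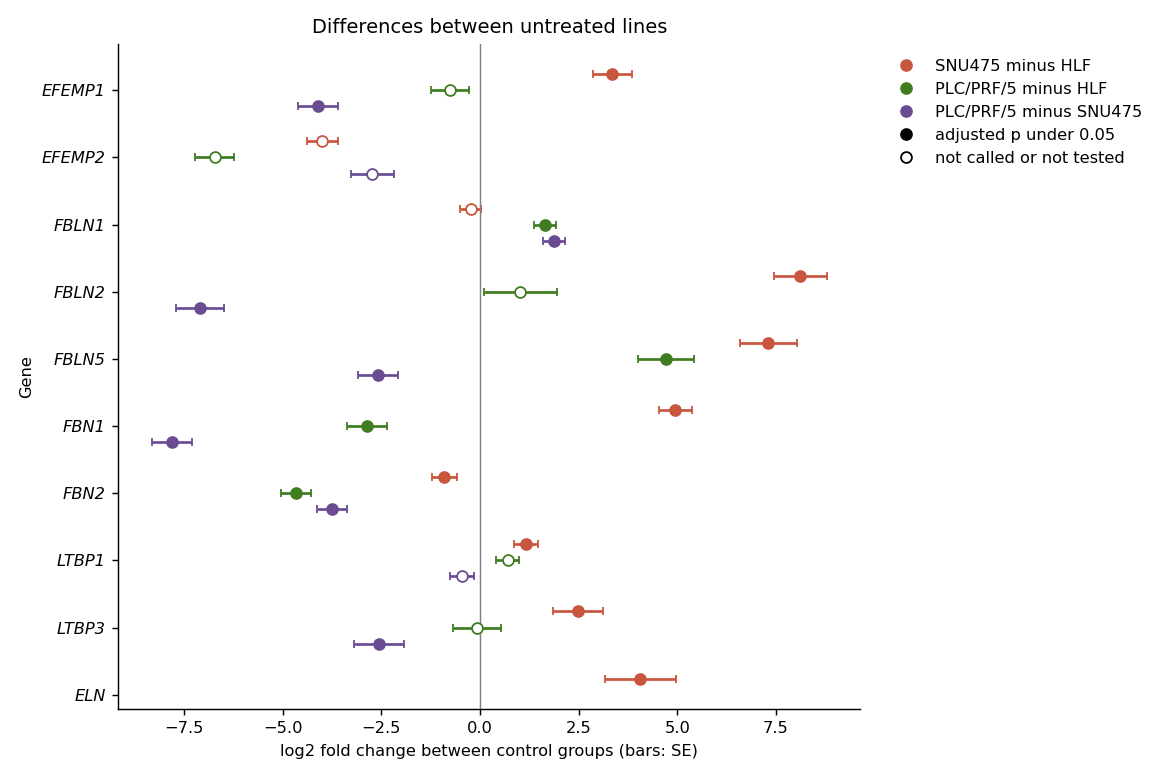
Log2 fold change between untreated lines for each gene, with SE bars and filled points where the edgeR adjusted p is under 0.05; EFEMP2 is open because no test is given for it, and ELN is shown for SNU475 minus HLF only, since PLC/PRF/5 had 0 counts. FBN1 runs from −7.81 (PLC/PRF/5 minus SNU475) to 4.95 (SNU475 minus HLF), and EFEMP2 is negative in all 3 comparisons.

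Summed over the 10 genes, controls held 69.0 and 87.5 TPM for HLF, 184 and 189 TPM for SNU475 and 177 and 163 TPM for PLC/PRF/5. What made up that sum differed by line. FBLN1 took 81.0% to 84.9% of it in the 4 PLC/PRF/5 libraries and 46.5% to 58.0% in the 4 HLF libraries, against 10.3% to 20.1% in SNU475. EFEMP2 took 13.2% to 17.8% in HLF and at most 1.65% in any SNU475 or PLC/PRF/5 library. EFEMP1 took 26.4% and 28.9% in the SNU475 libraries numbered 1 and 52.1% and 53.0% in those numbered 2. FBN1 took 9.80% to 15.0% in SNU475 and at most 1.68% elsewhere.

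**Figure D3:**
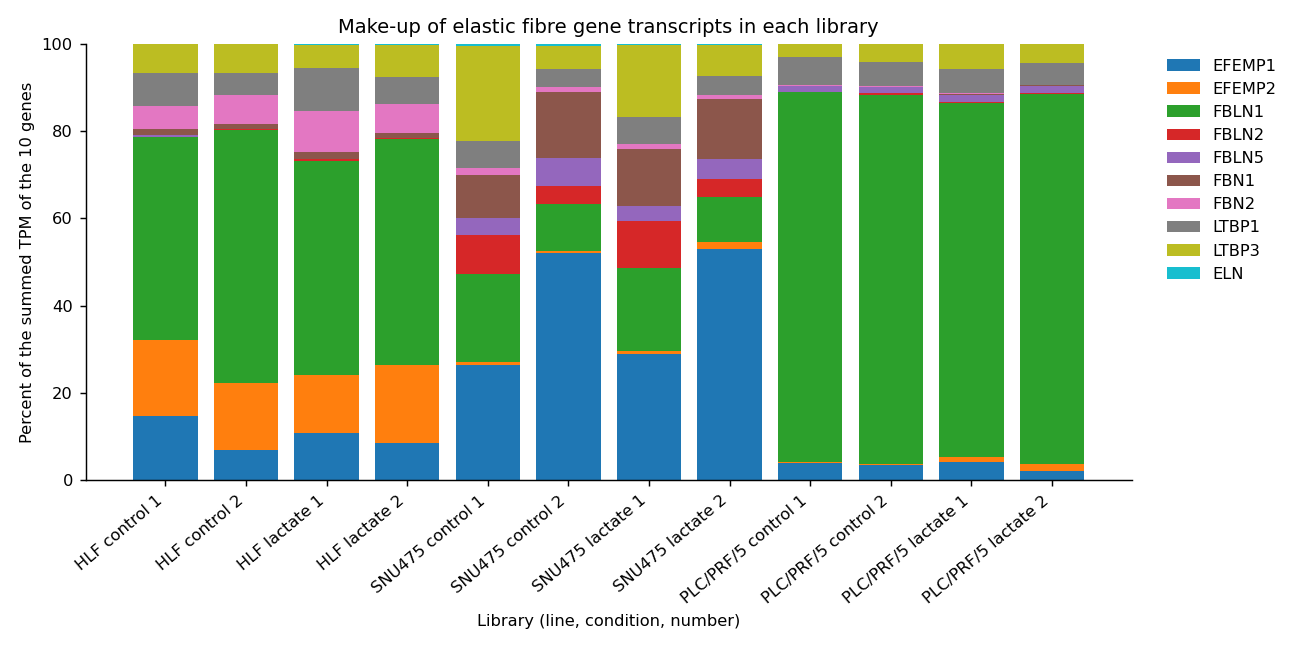
Share of the summed TPM of the 10 genes taken by each gene, in percent, as 1 stacked bar per library. FBLN1 fills at least 81.0% of every PLC/PRF/5 bar, EFEMP2 is visible as a band of 13.2% to 17.8% in HLF, and the SNU475 bars differ by library number in EFEMP1.

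Lactate was then compared with control for the 9 genes other than EFEMP2. None passed the edgeR test at an adjusted p under 0.05 in HLF, SNU475 or PLC/PRF/5, where 0% of all 18355 genes passed in each line. At an unadjusted p under 0.05 there were 1 of 9 in HLF (FBLN5), 0 in SNU475 and 1 in PLC/PRF/5 (FBLN2). Of all 18355 genes, 1152, 2127 and 1087 passed that limit in the same order. FBLN5 in HLF rests on 5 counts in control 1 and 0 in the other HLF libraries. DESeq2 called 0 of 9 in each line, where it called 0.128%, 0.81% and 0.287% of the 32081 genes given to it. In the mean effect over the 3 lines edgeR called 0 of 9, against 0.42% of all genes. At an unadjusted p under 0.05 there were 1 of 9, and 2903 of all 18355 genes. With the replicate number as a block 2 of 9 were called in the mean effect, FBLN2 and LTBP3, in a fit where 6.91% of all genes passed. The edgeR test of whether the lactate effect differs between lines called 0 of 9, and 0% of all genes. At an unadjusted p under 0.05 it gave 0 of 9, and 644 of all 18355 genes. DESeq2 called 0 of 9 for this difference, against 0.0249% of all genes.

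Fitted log2 fold changes were above 0 for 8 of 9 genes in HLF, for 8 of 9 in SNU475 and for 6 of 9 in PLC/PRF/5, which are signs and not calls. Over all genes, 48.02%, 51.05% and 52.76% were above 0 in the same order. ELN, at 0 counts in PLC/PRF/5, is among the 9 there and not above 0. The medians of the 9 genes were 0.32, 0.47 and 0.15, against 0.00, 0.01 and 0.03 over all genes. Both lactate libraries lay above both controls in CPM for 4 of 9 genes in HLF (FBLN1, FBLN2, FBN1 and LTBP3), where 19.6% of all genes did so. The same held for 1 of 9 in SNU475 (LTBP1), against 16.2% of all genes, and for 4 of 9 in PLC/PRF/5 (FBLN1, FBLN2, FBLN5 and LTBP3), against 28.5%. None of the 9 had both lactate libraries below both controls in any line. The share of all genes that did so was not counted, so this is a description.

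FBLN2 had the widest mean effect of the 9 among those with counts in every group. In HLF it had 4 and 2 counts in controls and 11 and 13 with lactate, and in PLC/PRF/5 4 and 8 in controls and 35 and 13 with lactate. In SNU475 it had 958 and 600 counts in controls and 1666 and 575 with lactate, where the groups overlapped. Per length, FBLN2 in PLC/PRF/5 did not rise, at 0.08 and 0.87 TPM in controls and 0.55 and 0.25 TPM with lactate. The effective length assigned to FBLN2 ran from 683 to 3918 bases over the 12 libraries. The log2 fold change was 1.80 ± 0.83 in HLF (edgeR adjusted p = 0.787), 0.69 ± 0.42 in SNU475 (0.557) and 1.68 ± 0.67 in PLC/PRF/5 (0.789). The mean over lines was 1.39 ± 0.38 (edgeR adjusted p = 0.114). It was called with the replicate block (1.33 ± 0.29, adjusted p = 0.0229), with DESeq2 (adjusted p = 0.0104) and without a filter on low counts (0.000229), where 6.91%, 3.02% and 2.87% of all genes passed. It was also called without both SNU475 libraries numbered 2 (adjusted p = 0.0136) and without SNU475 lactate library 1 (0.0421) or 2 (0.0273), where 2.76%, 7.69% and 1.55% passed.

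LTBP3 had log2 fold changes of 0.26 ± 0.61 for HLF, 0.48 ± 0.59 for SNU475 and 0.59 ± 0.61 for PLC/PRF/5, none of which passed the test. In SNU475 the sign turned without SNU475 lactate library 1 (−0.79 ± 0.61) and without SNU475 control 2 (−0.20 ± 0.54). Its libraries had 217 and 156 counts in HLF controls and 252 and 244 with lactate, and 156 and 185 in PLC/PRF/5 controls and 328 and 283 with lactate. In SNU475 the controls had 1499 and 371 counts and the lactate libraries 1881 and 451, so each lactate library exceeded the control of its own number. The mean effect was 0.44 ± 0.35 (edgeR adjusted p = 0.596) and ran from 0.02 to 0.88 with 1 library left out, and it was 0.45 ± 0.11 with the block (adjusted p = 0.0354).

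The fibrillins gave no call. FBN1 had 65 and 80 counts in HLF controls and 157 and 104 with lactate, a log2 fold change of 0.68 ± 0.38. In SNU475 its log2 fold change was 0.47 ± 0.34, and in PLC/PRF/5, on 19 counts in controls and 11 with lactate in all, it was −1.06 ± 0.71. FBN2 had 696 and 798 counts in HLF controls and 1559 and 906 with lactate, a log2 fold change of 0.56 ± 0.31, against 0.39 ± 0.32 in SNU475 and −0.08 ± 0.40 in PLC/PRF/5.

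LTBP1 gave log2 fold changes of 0.32 ± 0.30 for HLF, 0.52 ± 0.29 for SNU475 and 0.15 ± 0.29 for PLC/PRF/5. For FBLN1 they were 0.11 ± 0.27, 0.47 ± 0.27 and 0.14 ± 0.27 in the same order, and for EFEMP1 0.01 ± 0.46, 0.57 ± 0.45 and 0.18 ± 0.48. Each of these was within 2 SE of 0. FBLN5 stood at 3.55 and 3.43 CPM in PLC/PRF/5 controls and at 5.5 and 4.96 CPM with lactate, a log2 fold change of 0.58 ± 0.49, and at 0.07 ± 0.47 in SNU475. ELN had 22 and 41 counts in SNU475 controls and 23 and 17 with lactate, a log2 fold change of −0.47 ± 0.72, and 6 and 3 counts with lactate in HLF against 3 and 1 in its controls.

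**Figure D4:**
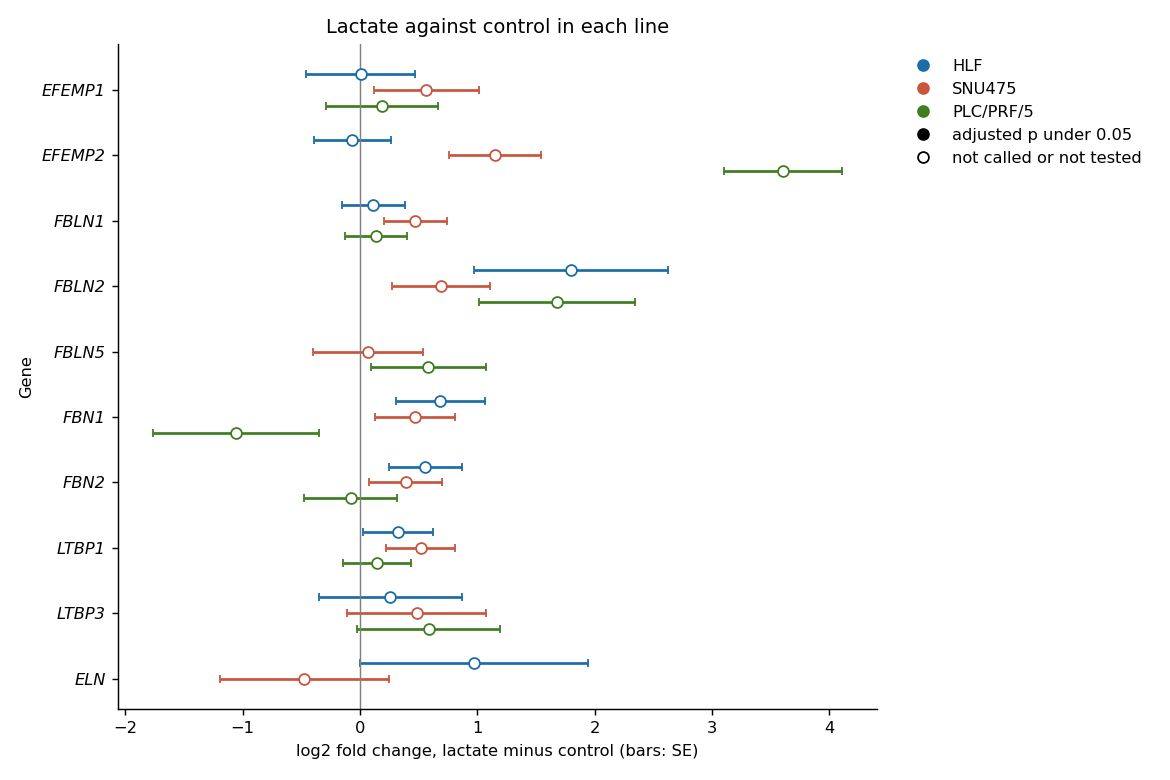
Log2 fold change of lactate against control for each gene in each line, with SE bars; open points were not called or, for EFEMP2, not tested, and FBLN5 in HLF and ELN in PLC/PRF/5 are left out because a group held 0 counts. EFEMP2 runs from −0.07 in HLF to 3.61 in PLC/PRF/5, and FBLN2 is above 0 in all 3 lines.

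In SNU475 the library number moved several of these genes in the same direction in control and lactate cells. The difference in log2 CPM, number 2 minus number 1, was −1.98 in controls and −1.93 with lactate for LTBP3, and 1.09 and 0.86 for EFEMP1. It was −0.71 and −0.76 for FBLN1, −0.64 and −1.41 for FBLN2, 1.0 and 0.35 for FBN1 and 0.96 and 0.47 for FBLN5. The SD of the same difference over all genes was 0.86 in SNU475 controls and 1.07 with lactate, so LTBP3 differed by more than 2 SD in controls and FBLN1 by less than 1 SD. In HLF and PLC/PRF/5 controls the SD over all genes was 0.68 and 0.53. The mitochondrial share also differed by number in SNU475, as given above, and its part in these values was not tested.

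**Figure D5:**
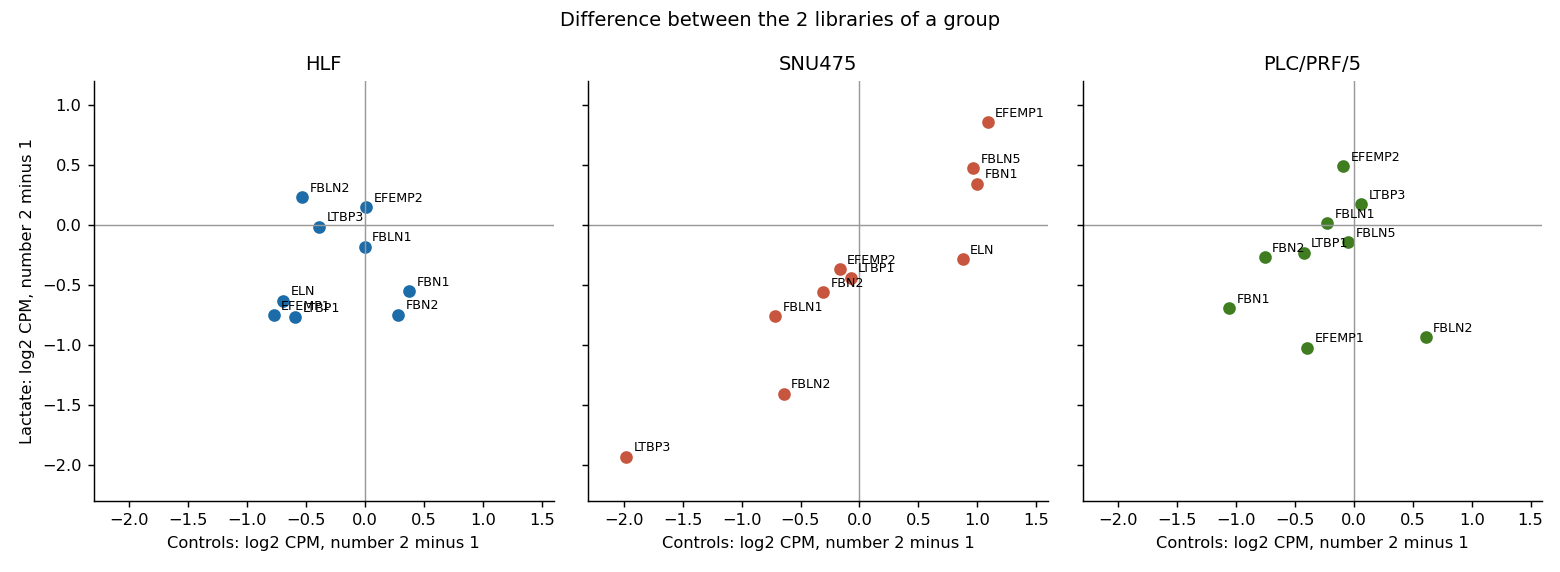
Difference in log2 CPM between the library numbered 2 and that numbered 1, in control cells on the x axis and lactate cells on the y axis, for each gene with counts in all 4 libraries of a line. In SNU475 LTBP3 lies at −1.98 and −1.93 and EFEMP1 at 1.09 and 0.86.

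Other genes of the pathway were taken from lists of elastic fibre partners, crosslinkers, ADAMTS-family proteins, integrins, TGF-beta genes, processing enzymes and elastin-degrading proteases. Of 64 listed genes, 56 had enough counts to be tested. SNU475 was above HLF in 26 and below it in 11, or 66.1% called against 39% of all genes (median log2 difference 0.80, against 0.00 over all genes). PLC/PRF/5 was above HLF in 14 and below it in 23, or 66.1% against 43% (median −0.43, against 0.00). It was above SNU475 in 14 and below it in 31, or 80.4% against 48.7% (median −1.97, against −0.03). The counts of single lists below are read against these same shares over all genes. They rest on 5 to 12 genes each.

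The lysyl oxidases, which crosslink elastin and collagen, were called in 5 of 5 cases between PLC/PRF/5 and SNU475, 4 lower and 1 higher in PLC/PRF/5. Against HLF, 4 of 5 were called in PLC/PRF/5 (1 higher and 3 lower) and 5 of 5 in SNU475 (4 higher and 1 lower). LOX was at 17.6 and 10.5 TPM in HLF controls, 24.2 and 37.9 TPM in SNU475 controls and 0.29 and 0.32 TPM in PLC/PRF/5 controls. LOXL1 and LOXL2 were lower in PLC/PRF/5 too, with log2 fold changes against SNU475 of −6.74 ± 0.62 and −4.24 ± 0.43 (edgeR adjusted p = 6.67e-06 and 1.47e-05). LOXL4 was the exception, at 77.4 and 45.1 TPM in PLC/PRF/5 controls, 2.30 and 1.18 TPM in SNU475 controls and 0 counts in both HLF controls.

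Of 12 tested microfibril and elastic fibre partners, 10 differed between SNU475 and HLF (9 higher and 1 lower in SNU475), 7 between PLC/PRF/5 and HLF (3 higher and 4 lower) and 10 between PLC/PRF/5 and SNU475 (2 higher and 8 lower), where 39%, 43% and 48.7% of all genes passed. VCAN, a proteoglycan that binds fibrillin and fibulins, was at 114 and 124 TPM in PLC/PRF/5 controls, 2.67 and 1.34 TPM in SNU475 controls and 0.09 and 0.18 TPM in HLF controls. EMILIN2, an elastin interface glycoprotein, was also highest in PLC/PRF/5, at 65.6 and 62.1 TPM in controls, against 2.09 and 1.61 TPM in SNU475. MFAP2, a small microfibril protein, was highest in SNU475, at 10.8 and 24.4 TPM in controls, against 0.07 and 0.10 TPM in HLF. LTBP4, which works with fibulin-5 in elastin deposition, was highest in HLF, at 66.2 and 57.1 TPM in controls, against 13.8 and 18.0 TPM in SNU475.

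Among 8 TGF-beta ligands, receptors and anchors, 5 were higher and 0 lower in SNU475 than in HLF, against 39% of all genes called. In PLC/PRF/5, 4 were higher and 3 lower than in HLF, against 43%, and 2 were higher and 5 lower than in SNU475, against 48.7%. LRRC32, which holds latent TGF-beta at the cell surface, was at 15.8 and 11.0 TPM in SNU475 controls and below 1 TPM in the controls of both other lines. TGFB1 had a log2 fold change of −3.17 ± 0.30 (edgeR adjusted p = 7.96e-06) in PLC/PRF/5 against SNU475, while the receptor gene TGFBR2 had 2.71 ± 0.20 (adjusted p = 1.39e-06). Of 8 integrin genes, 1 was higher and 2 lower in SNU475 than in HLF, and in PLC/PRF/5 1 was higher and 4 lower than in either other line. ITGB3, a subunit of a receptor for fibrillin and fibulin-5, had 6 and 4 counts in PLC/PRF/5 controls and 755 and 1240 in SNU475 controls. ITGB5 was the integrin gene higher in PLC/PRF/5, with a log2 fold change against SNU475 of 1.29 ± 0.23 (edgeR adjusted p = 0.000888). ITGAV and ITGB1 gave −0.07 ± 0.27 and −0.26 ± 0.21 in the same comparison and were not called.

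Of 9 tested elastin-degrading proteases, 4 were higher and 1 lower in SNU475 than in HLF, and in PLC/PRF/5 2 were higher and 3 lower than in HLF and 2 higher and 6 lower than in SNU475. MMP2, a gelatinase, had 0 counts in both PLC/PRF/5 controls, 3207 and 4294 in SNU475 controls and 546 and 244 in HLF controls. Of 7 ADAMTS-family genes, 1 was higher and 3 lower in SNU475 than in HLF, and in PLC/PRF/5 1 was higher and 4 lower than in HLF and 1 higher and 3 lower than in SNU475. Of 7 processing and secretion genes, 2 were higher and 3 lower in SNU475 than in HLF, and in PLC/PRF/5 2 were higher and 2 lower than in HLF and 5 higher and 1 lower than in SNU475.

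With lactate, 0 of the 56 pathway genes were called in any single line by edgeR, where 0% of all genes passed. At an unadjusted p under 0.05 there were 6 for HLF, 9 for SNU475 and 6 for PLC/PRF/5. Of all 18355 genes, 1152, 2127 and 1087 passed that limit in the same order. In the mean effect 2 of the 56 rose, LTBP4 and ADAMTSL4, against 0.42% of all genes called. LTBP4 had 2162 and 1845 counts in HLF controls and 3874 and 2616 with lactate, 324 and 454 in SNU475 controls and 668 and 689 with lactate, and 407 and 567 in PLC/PRF/5 controls and 1296 and 1078 with lactate. Its mean log2 fold change was 0.86 ± 0.14 (edgeR adjusted p = 0.0301). ADAMTSL4, which encodes a fibrillin-binding protein, had 609 and 509 counts in HLF controls and 1402 and 993 with lactate, 214 and 120 in SNU475 controls and 695 and 224 with lactate, and 131 and 193 in PLC/PRF/5 controls and 670 and 637 with lactate. Its mean log2 fold change was 1.45 ± 0.25 (adjusted p = 0.0401). For both genes the lactate libraries lay above the controls in each of the 3 lines, in counts not scaled for library size. Such separation in CPM was found for 19.6% (HLF), 16.2% (SNU475) and 28.5% (PLC/PRF/5) of all 18355 genes, each line taken alone. LTBP4 and ADAMTSL4 are named because of their calls in the mean effect, so their separation is a description and no further test of these 2 calls.

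These 2 calls depended on the fit. Adjusted p-values were lower with DESeq2 (6.49e-06 for LTBP4 and 8.71e-06 for ADAMTSL4), which called 5 of 63 pathway genes in the mean effect, 4 in SNU475 and 3 in PLC/PRF/5, where it called 3.02%, 0.81% and 0.287% of all genes. With no filter on low counts, 9, 5 and 5 of 63 were called, where 2.87%, 1.29% and 0.586% of all genes passed. All of these rose. Both calls were lost with limma-voom (adjusted p = 0.0544 for LTBP4 and 0.0616 for ADAMTSL4), where 0.0872% of all genes passed. They were also lost without any 1 PLC/PRF/5 library, either HLF control, HLF lactate library 1 or SNU475 control 2. These fits leave 1 library in a group and lost calls over all genes too. In them the mean log2 fold change ran from 0.76 to 0.95 for LTBP4 and from 1.33 to 1.51 for ADAMTSL4. The call of ADAMTSL4 was lost as well without HLF lactate library 2 (log2 fold change 1.52). That of LTBP4 was lost with effective-length offsets (adjusted p = 0.167), where 0.0926% of all genes passed. With the replicate block 7 of the 56 genes rose in the mean effect, 5 in SNU475 and 4 in PLC/PRF/5, where 6.91%, 0.251% and 0.659% of all genes passed. LOX, which binds fibulin-4, had a mean log2 fold change of 1.08 ± 0.27 (adjusted p = 0.0973 with no block).

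The genes whose log2 CPM followed that of EFEMP2 most closely over the 12 libraries, of 13426 ranked, were WDR54 (Pearson r = 0.98), TNNT1 (0.979), ZFYVE28 (0.978), CTXN1 (0.976) and DLG4 (0.971). These correlations rest on the gaps between 3 lines that share their libraries and are a description. In PLC/PRF/5, WDR54 had 8.80 and 9.46 CPM in controls and 18.7 and 19.1 CPM with lactate, and TNNT1 had 5.47 and 3.53 CPM in controls and 13.4 and 15.5 CPM with lactate. In HLF, WDR54 had 74.5 and 62.0 CPM in controls and 66.9 and 73.6 CPM with lactate, which overlapped. CTXN1 overlapped there too, at 20.0 and 23.0 CPM in controls and 20.4 and 29.9 CPM with lactate. Higher in both HLF lactate libraries were TNNT1 (71.8 and 54.9 CPM, then 86.2 and 94.3), ZFYVE28 (10.6 and 8.17, then 12.9 and 11.3) and DLG4 (25.1 and 21.7, then 35.3 and 27.3). The genes were picked by likeness to EFEMP2, so their lactate values are a description.

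In the RefSeq annotation of GRCh38.p14, EFEMP2 lies between CTSW and MUS81 and its interval overlaps that of MUS81. MUS81, a DNA endonuclease subunit, had 63.3 and 59.1 CPM in HLF controls and 46.1 and 51.2 CPM with lactate, and 31.2 and 32.2 CPM in PLC/PRF/5 controls and 32.1 and 31.2 CPM with lactate. Its lactate log2 fold change was −0.33 ± 0.24 for HLF, −0.45 ± 0.24 for SNU475 and −0.00 ± 0.24 for PLC/PRF/5, and none was called by edgeR. CTSW had at most 3 counts in any library. Since the strand setting of the counting is not given in the sources used here, reads in the overlap may not have been told apart.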

How the data were processed

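The authors deposited 1 table per library with estimated counts (expected counts), TPM and effective length per gene. Tools listed in the submitters' processing notes are STAR, RSEM, FastQC and DESeq2, with the mouse builds GRCm38 and mm10, although all 62757 rows carry human identifiers per the file headers; the human build is not given in the sources used here. TPM values are those the authors deposited. For 47 pseudoautosomal genes the X and Y rows were summed, which left 62710 genes. The expected counts, as whole numbers after rounding, were scaled by TMM (factors 0.794 to 1.165), and 18355 genes passed edgeR's filterByExpr.

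The main test was edgeR's quasi-likelihood test (edgeR 4.0.16, R 4.3.3) over all 12 libraries as 6 groups with 6 residual degrees of freedom, Benjamini-Hochberg adjustment over all 18355 genes and a threshold of 0.05. The script was tested on simulated data. DESeq2 1.42.0, limma 3.58.1 (voom), other scaling, no filter, a replicate block and left-out libraries were the alternatives. Counting intervals are exact binomial at 95%, and a floor is 3 counts.

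Same-numbered libraries deviated together in SNU475, with a correlation over genes of 0.446, and only weakly in PLC/PRF/5 (0.132) and HLF (0.101). The replicate block took the numbers to pair control and lactate libraries, and the main test used no pairing. In PLC/PRF/5 the pairing rests on the numbers in the titles. Titles, not file names, gave each library its group and number.

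All 10 genes are named. From each list, up to 4 genes with the smallest p between untreated lines and up to 2 in the mean lactate effect could be named, plus the 5 genes most like EFEMP2 (mean of at least 2 CPM, log2 CPM with a prior count of 2) and the gene on each side of EFEMP2 and LTBP3. The genes beside LTBP3 are not reported here. ELN-AS1 was added after its values were seen. The genes and lists were chosen with earlier results of these data known.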

Additional observations from a re-analysis of the deposited data

How the results depend on the processing

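Of the 9 genes tested for the mean lactate effect, 0 were called by edgeR (0.42% of all genes), but 1 with DESeq2 (3.02%), 1 with no filter on low counts (2.87%), 2 with the replicate block (6.91%), 1 without both SNU475 libraries numbered 2 (2.76%), and 0 to 1 when 1 library was left out, the 1 without SNU475 lactate library 1 (7.69%) or 2 (1.55%). Of 10 genes, 9 were called between untreated SNU475 and HLF, and 5 to 9 when 1 library was left out, the 5 without HLF control 2, where 26.3% of all genes passed in place of 39%. The counts in the other 6 comparisons stayed within 1.5 times their value. EFEMP2 is among these 10 genes as a description only. Without it, 8 of 9 genes were called between untreated SNU475 and HLF over all 12 libraries. The replicate block changed no call other than those given in the text (FBLN2 and LTBP3 in the mean lactate effect, EFEMP1 and LTBP1 between untreated lines). Between lines its SE leaves out the spread between a line's library numbers. RLE factors and library sizes without mitochondrial transcripts changed no call or direction among the 64 gene-level results compared. With effective-length offsets, small lactate log2 fold changes turned sign: EFEMP1 −0.035 and EFEMP2 0.017 in HLF, and EFEMP1 −0.018 and LTBP1 −0.025 in PLC/PRF/5. Without both SNU475 libraries numbered 2, ELN in SNU475 with lactate turned to 0.20 and FBLN1 in SNU475 against HLF to 0.12. With CPM in place of TPM, the log2 ratio of untreated PLC/PRF/5 turned to −0.46 against SNU475 for LTBP1 and to −0.078 against HLF for LTBP3. The cause of these changes was not tested. Leaving out 1 library at a time, lactate log2 fold changes ran in HLF from −0.41 to 0.48 for EFEMP1, −0.145 to 0.019 for EFEMP2 and −0.10 to 0.68 for LTBP1. In SNU475 they ran from −0.18 to 1.23 for FBLN2, −0.34 to 0.63 for FBLN5, −0.79 to 1.79 for LTBP3 and −0.87 to 0.057 for ELN. In PLC/PRF/5 they ran from −0.43 to 0.60 for EFEMP1, −0.44 to 0.37 for FBN2 and −0.054 to 0.37 for LTBP1. The mean effect of FBN1 ran from −0.18 to 0.28, FBLN1 in SNU475 against HLF from −0.64 to 0.10 and LTBP3 in PLC/PRF/5 against HLF from −0.26 to 0.17. An arm left with 1 library was assumed to vary like the other groups.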
